A study of Rattus norvegicus with 4 samples.

Results

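The genes described here are the SMYD family and related SET-domain methyltransferases of muscle: Smyd1, Smyd2, Smyd3, Smyd4, Smyd5, Setd3 and Setd7. They were found by their gene symbol in the annotation of the array platform. Of the 7 genes, 6 had a feature among the 19868 named genes, each with exactly 1 of the 62976 features. Setd3 was not analysed here. The cells were ventricular cardiomyocytes of Sprague-Dawley rats on postnatal day 3, kept for 48 h in 5% horse serum and 20 µM cytosine arabinoside, a drug that holds back dividing cells. They were then infected for 48 h with adenovirus carrying Smyd2 or, in the control cultures, lacZ, the bacterial gene of beta-galactosidase. The 2 groups had 2 samples apiece, biological replicates by the series design, and each sample was read on a single-colour array. All 4 sample names begin with siScr, which the labels leave unexplained, and the protocol also speaks of small interfering RNA. The labels name neither the promoter of the viral constructs nor the species of the Smyd2 insert.

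SMYD proteins carry a SET domain, which transfers methyl groups to lysine, split by a MYND zinc finger, which binds other proteins. Much of their known work in muscle lies outside the nucleus. SMYD1 is found chiefly in heart and skeletal muscle and is needed for sarcomere assembly in zebrafish and for heart development in mice, and SMYD2 forms a cytoplasmic complex with the chaperone HSP90 that binds titin. SMYD3 is known for methylating the kinase MAP3K2, and SETD7 adds a methyl group to histone H3 and to many other proteins. SETD3, in spite of its SET domain, is the enzyme that methylates a histidine of actin.

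The promoters of Smyd1, Smyd2 and Smyd4 are shown because Smyd1 and Smyd4 were the members that differed most between the groups and Smyd2 is the gene the virus was labelled to carry. The RefSeq table held an entry for 5 of the 7 genes, on build GRCr8. Each sequence runs 5′ to 3′ on the gene's strand from 250 bases before to 50 after the transcript start, and capitals mark matches to the motifs searched.
Smyd1, chr4:104811223-104811522, minus strand: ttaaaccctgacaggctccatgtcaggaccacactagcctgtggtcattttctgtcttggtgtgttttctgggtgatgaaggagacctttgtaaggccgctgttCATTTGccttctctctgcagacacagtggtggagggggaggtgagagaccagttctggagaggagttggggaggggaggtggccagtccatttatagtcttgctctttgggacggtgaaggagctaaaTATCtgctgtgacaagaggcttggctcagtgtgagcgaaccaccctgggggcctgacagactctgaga
Smyd2, chr13:103997725-103998024, minus strand: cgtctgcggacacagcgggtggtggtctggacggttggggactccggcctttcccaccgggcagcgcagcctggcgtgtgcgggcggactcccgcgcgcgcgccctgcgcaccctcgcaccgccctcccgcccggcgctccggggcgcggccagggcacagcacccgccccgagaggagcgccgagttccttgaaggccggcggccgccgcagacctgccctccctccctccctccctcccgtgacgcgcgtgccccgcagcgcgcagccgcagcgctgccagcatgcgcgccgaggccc
Smyd4, chr10:60698173-60698472, plus strand: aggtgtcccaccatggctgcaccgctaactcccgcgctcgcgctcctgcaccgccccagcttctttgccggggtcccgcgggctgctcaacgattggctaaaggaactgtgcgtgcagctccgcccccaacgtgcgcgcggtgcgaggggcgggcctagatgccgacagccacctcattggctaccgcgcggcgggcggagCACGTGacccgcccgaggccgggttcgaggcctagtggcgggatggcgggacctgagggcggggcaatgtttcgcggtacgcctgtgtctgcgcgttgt

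The Smyd1 promoter differed from those of its relatives in base composition. It was 53.3% G and C with 3 CG dinucleotides, near the medians of 51.7% and 7 over all 33469 promoters. The Smyd2 promoter was 78.7% G and C with 44 CG dinucleotides, that of Smyd4 70.0% with 37, that of Setd3 70.0% with 32, and that of Smyd5 59.0% with 17. Motifs of muscle factors were searched on both strands. The E-box was spelled CANNTG, the site of GATA factors was spelled as their name, and the M-CAT motif of TEAD factors was spelled CATTCC. The CArG box of SRF and the MEF2 site were the others. Smyd1 held 1 E-box, CATTTG, 146 bases before the start, and 1 GATA match, read as TATC, 18 bases before it. Smyd4 held 1 E-box, CACGTG, and Smyd2 held none of the 5 motifs. E-boxes were present in 72.1% of all promoters and GATA matches in 60.5%, so these matches are common. No CArG box (1.64% of all promoters), MEF2 site (3.29%) or M-CAT motif (14.2%) lay in the windows of the 5 genes, which says only that these letters are absent there.

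Levels below are log2 intensities as the authors normalized them, means carry the SD over the 2 arrays in a group, and every difference is the Smyd2-labelled group minus the control group. The 4 arrays share a median of 4.70 over all features, and the table carries no detection flag, so a gene near that value is called dim. Differences were tested with limma over all genes, two-sided, with Benjamini-Hochberg adjustment. No gene of the 19868 had an adjusted p under 0.05 (0% called), while 2363 had an unadjusted p under 0.05 (11.9%). The smallest p that an exact two-sided permutation of 2 arrays against 2 can give for any gene is 0.333. The number of arrays limits the precision of every value.

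Smyd2 itself, the gene that the virus was labelled to carry, was not higher on the Smyd2-labelled arrays. Its feature read 8.72 and 8.86 on control replicates 1 and 2, and 8.92 and 8.42 on Smyd2 replicates 1 and 2. The highest and the lowest of these 4 values both came from the Smyd2-labelled arrays, and the groups overlapped. By limma the group means differed by −0.12 (95% interval −0.83 to 0.60, SE 0.28, adjusted p = 0.913), which turned to 0.13 without Smyd2 replicate 2. The upper bound of the interval is less than 1 log2 unit above the controls. The probe's position was not known here. If the probe lay outside the viral insert, the feature would not read the viral transcript. If the insert came from another species, the feature might not read it. The directions below therefore rest on the labels alone.

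**Figure D1:**
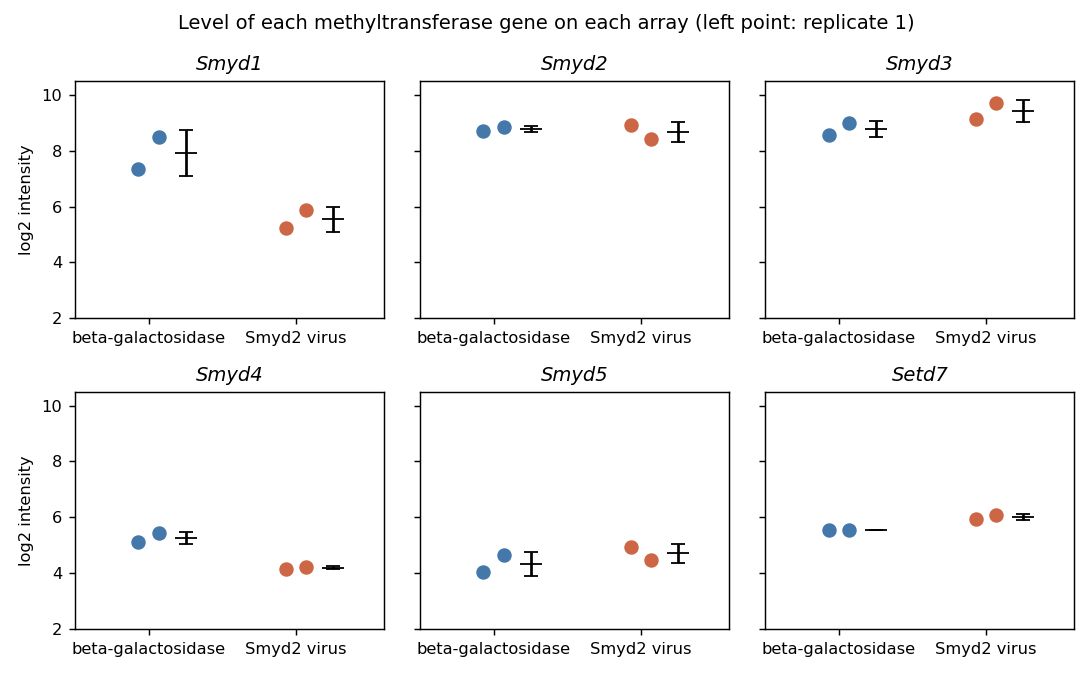
Log2 intensity (vertical axis) of the 6 measured genes on each array, with 1 point per array (blue, beta-galactosidase; red, Smyd2) and the group mean ± SD beside it. Smyd1 and Smyd4 were lower on both Smyd2-labelled arrays, Smyd3 and Setd7 were higher on both, and the groups of Smyd2 and Smyd5 overlapped.

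Smyd1, the striated-muscle member, showed the largest difference of the 6 genes. It read 7.34 and 8.49 in the controls and 5.23 and 5.87 on the Smyd2-labelled arrays. Every control value lay above every value of the other group, although the control replicates were 1.15 log2 units apart. The group means were 7.91 ± 0.82 and 5.55 ± 0.45, a 5.14-fold lower level (difference −2.36, SE 0.47, 95% interval −3.58 to −1.15). The values on the Smyd2-labelled arrays lay not far above the array median of 4.70, so the size of the difference is less certain. Only 0.383% of all genes had a more negative difference. The limma adjusted p was 0.222, so Smyd1 did not pass. A fit in which the spread follows intensity, with a prior robust to outliers, called it lower (adjusted p = 0.032). That fit called 1.93% of all genes, and 1.45% as lower. An intensity trend alone did not (adjusted p = 0.0869). With 1 array left out the difference ranged from −2.94 to −1.78.

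**Figure D2:**
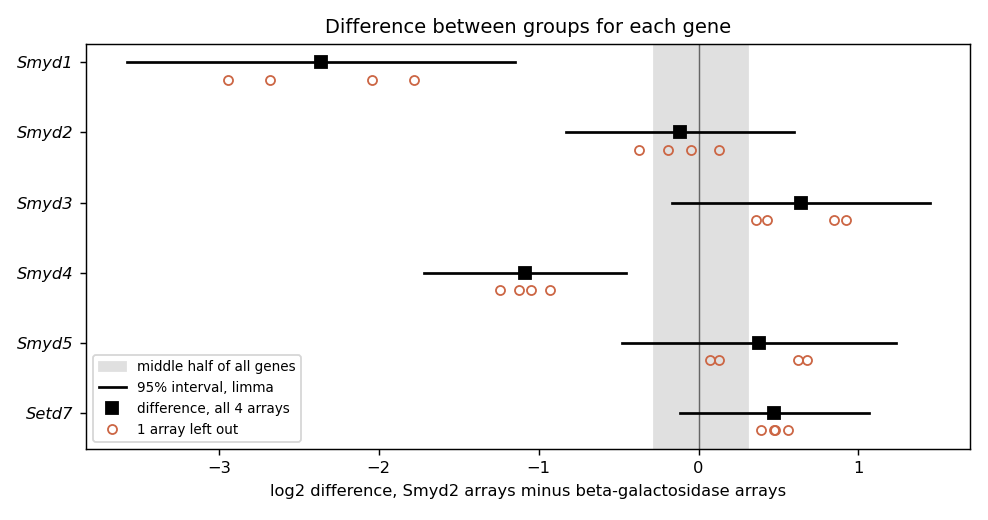
Log2 difference between the groups (horizontal axis) for each gene, with the limma 95% interval as a line and the values after leaving out each array as open circles. The intervals of Smyd1 and Smyd4 lie below 0, and the grey band, from −0.28 to 0.31, holds the middle of all genes between their quartiles.

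The cardiomyocyte markers were lower beside Smyd1. Actc1 was at the top of the scale on all 4 arrays, where no difference can be read. The other 11 of the 12 markers were lower, with a median of −2.14 (−2.01 with Actc1) against 0.011 over all genes, and by limma 10 had an unadjusted p under 0.05 and 0 an adjusted one. At that unadjusted level 6.39% of all genes were lower. With the intensity trend and robust prior 10 were called lower by the adjusted p, where that fit called 1.45% of all genes lower. The mean of the 12 markers was 14.65 and 14.89 in the controls and 13.12 and 12.99 on the Smyd2-labelled arrays. Troponin I of the heart, Tnni3, read 14.83 ± 0.05 and 12.66 ± 0.10, and the ventricular light chain Myl3 15.72 ± 0.15 and 13.50 ± 0.22. The Z-disc protein Csrp3 differed by −2.35, and Nppa, the precursor of atrial natriuretic peptide, by −1.82. Of the 12 markers, 2 had a more negative difference than Smyd1. In 5 of the others (Tnnt2, Myh6, Myh7, Actc1 and Myl2) at least 1 array lay above 15.9, the top of the scale, which compresses a difference.

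Smyd1 was therefore also set against the mean of the 7 markers below that level, a choice made after the data were seen. These had a median difference of −2.22 and ranged from −2.61 to −1.82. Smyd1 minus their mean was −6.40 and −5.61 in the controls and −6.50 and −5.75 on the Smyd2-labelled arrays. The groups overlapped, and their means differed by −0.12, less than the SD of 0.56 and 0.53 within the groups. Of the 7 markers, Csrp3 and Myl3 still read 15.85 and 15.83 on control replicate 2, and Nppa 15.85 on control replicate 1. These values are near the top of the scale, so some compression may remain. Smyd1 itself read 5.23 and 5.87 on the Smyd2-labelled arrays, not far above the array median of 4.70. This also limits the comparison. Against all 12 markers the difference was −0.65, from −1.10 to −0.19 with 1 array left out. In RNA of a whole culture, fewer cardiomyocytes and less of these transcripts per cardiomyocyte cannot be told apart.

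Markers of fibroblasts and leukocytes were mostly higher on the same arrays, though none passed limma's adjusted test. Apart from Col1a1, which was at the top of the scale on all 4 arrays, the other 11 of 12 fibroblast markers were higher, with a median of 0.92 (0.85 with Col1a1) and a list mean of 10.82 and 11.44 in the controls and 11.92 and 11.79 on the Smyd2-labelled arrays. All 12 leukocyte markers were higher, with a median of 1.36 and list means of 6.34 and 5.47 against 7.73 and 6.44. The groups did not overlap for only 6 of the 12 fibroblast markers, Col1a1 included, and 4 of the 12 leukocyte markers. Over all genes 21.9% were higher without overlap. Of the defining leukocyte genes, Ptprc was dim on the control arrays (3.51 and 3.52) and read 5.88 and 4.95 on the others, while Csf1r was dim on all 4. Endothelial markers (7 of 10 higher, median 0.32) had list means of 7.25 and 6.45 against 6.97 and 6.92. Smooth muscle and pericyte markers (8 of 10 higher, median 0.58) had 10.19 and 10.66 against 11.05 and 10.84. By limma's unadjusted p under 0.05, 3 fibroblast, 4 leukocyte, 1 endothelial and 2 smooth muscle or pericyte markers were higher and 1 of the last list was lower. At that level 5.51% of all genes were higher and 6.39% lower. None of the markers passed the adjusted test. With the intensity trend and robust prior Notch3 (1.64) and Rgs5 (1.77) of the smooth muscle and pericyte list were called higher. That fit called 95 of all 19868 genes higher. Abcc9 (−1.05) and Cspg4 (−0.61) of the same list were lower on both Smyd2-labelled arrays and did not pass. Without control replicate 1 the fibroblast median was 0.20 and the smooth muscle and pericyte median −0.11, and without Smyd2 replicate 1 the leukocyte median was 0.58. The endothelial median was 0.58 without control replicate 1 and 0.00 without control replicate 2. Their part in the Smyd1 difference was not tested.

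**Figure D3:**
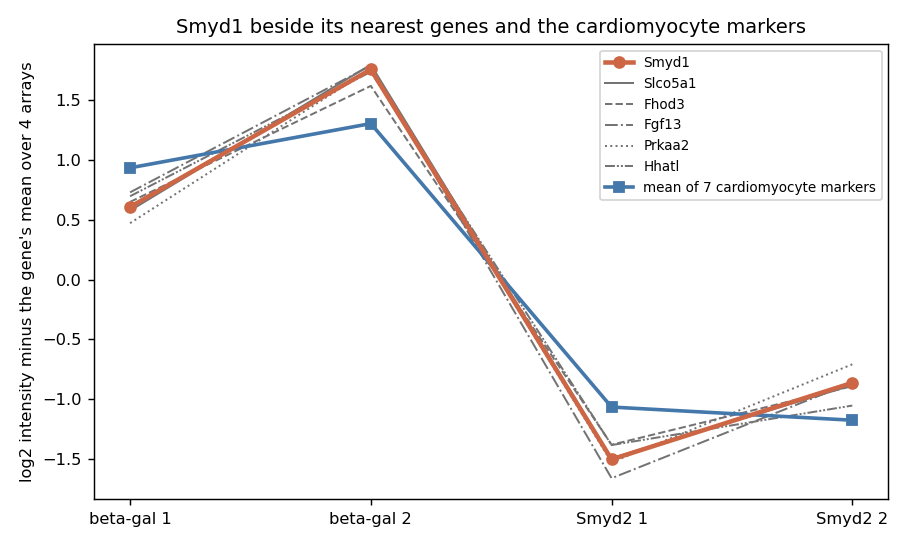
Log2 intensity minus each gene's mean over the 4 arrays (vertical axis) on each array (horizontal axis, where lines only join a gene's values and imply no order), for Smyd1 (red), its 5 nearest genes (grey) and the mean of the 7 cardiomyocyte markers below the top of the scale (blue). Control replicate 2 is the highest array and Smyd2 replicate 1 the lowest for Smyd1, while the marker mean is nearly equal on both Smyd2-labelled arrays.

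Within the groups, Smyd1 was higher on control replicate 2 than on control replicate 1 and lower on Smyd2 replicate 1 than on Smyd2 replicate 2. The 5 genes with the most similar profile, by the root mean square difference of values centred on each gene's mean over the 4 arrays, were Slco5a1 (0.027), Fhod3 (0.095), Fgf13 (0.103), Prkaa2 (0.104) and Hhatl (0.118). Fhod3 encodes a formin of the heart sarcomere and Prkaa2 the catalytic subunit of AMP-activated kinase that prevails in muscle. Fhod3 read 10.53 and 11.50 in the controls and 8.50 and 8.99 on the Smyd2-labelled arrays. Of 8992 genes compared, 28 lay within 0.25 log2 units of Smyd1. The same measure gave 2676 genes within 0.25 of Smyd2, whose values varied little, and its 5 nearest were C1H19orf84, B9d2, Dhps, Prpf40b and Prpsap1, at 0.031 to 0.036.

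Smyd4, which also carries tetratricopeptide repeats and is needed for heart development in zebrafish, was the other member that was lower. It read 5.11 and 5.42 in the controls and 4.15 and 4.22 on the Smyd2-labelled arrays. The groups did not overlap, and the difference of −1.08 was larger than the 0.31 and 0.08 between replicates. This was a 2.12-fold lower level (SE 0.25, 95% interval −1.71 to −0.45), with a limma adjusted p = 0.25. The value on the Smyd2-labelled arrays lay below the array median, so the size of the difference is uncertain in both directions. In the fit with an intensity trend and robust prior its SE was 0.43 (95% interval −2.05 to −0.12) and its adjusted p was 0.322.

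Smyd3 was higher on both Smyd2-labelled arrays but did not pass. It read 8.57 and 8.99 in the controls and 9.14 and 9.70 on the others. The groups were apart by only 0.15 at their nearest values, and replicates of each group differed by 0.42 and 0.55. By limma the difference of 0.64 (95% interval −0.17 to 1.45, SE 0.31) had an adjusted p = 0.514, and it was 0.36 without Smyd2 replicate 2.

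Setd7 showed a smaller and tighter difference. It read 5.55 and 5.53 in the controls and 5.93 and 6.10 on the Smyd2-labelled arrays. The difference of 0.47 exceeded the 0.02 and 0.17 between replicates, but limma, which pools the spread over genes, gave an SE of 0.23 and an adjusted p = 0.511 (95% interval −0.12 to 1.07). Without moderation of the spread the unadjusted p was 0.0314 and the adjusted p 0.504. With the intensity trend and robust prior the SE was 0.35 and limma's adjusted p 0.665 (95% interval −0.33 to 1.28).

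Smyd5, whose protein is known to methylate a ribosomal protein, was dim in both groups. It read 4.03 and 4.64 in the controls and 4.95 and 4.47 on the Smyd2-labelled arrays. The groups overlapped, and limma gave 0.38 (95% interval −0.48 to 1.24, SE 0.33, adjusted p = 0.728). Without 1 array at a time it moved between 0.07 and 0.68, the lowest without control replicate 1.

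Over the 6 genes, 3 were on each side of 0 and the median difference was 0.13 against 0.011 for all genes. By limma's unadjusted p, 2 of the 6 had p under 0.05, both lower, where 6.39% of all genes were lower and 5.51% higher at that level. The groups did not overlap for 4 of the 6, of which 2 were higher and 2 lower, where 42.7% of all genes did not overlap, 21.9% higher and 20.8% lower. By limma's adjusted p, 0 of the 6 passed.

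Among the partners and chaperones of SMYD proteins, titin and the muscle chaperone Unc45b had the largest differences, both lower. The groups did not overlap for 5 higher and 3 lower genes, where 21.9% of all genes were higher and 20.8% lower without overlap. The list's median over 12 measured genes was 0.16, with 8 above 0 and 4 below. At an unadjusted p under 0.05 limma had 1 higher and 2 lower, beside 5.51% and 6.39% of all genes, and none by its adjusted p. Titin, Ttn, the giant sarcomere spring that SMYD2 binds, read 10.94 and 10.82 in the controls and 7.70 and 8.60 on the Smyd2-labelled arrays (difference −2.73). Of its 5 features, 4 were lower, from −2.73 to −1.60, and the dimmest differed by 0.11. Unc45b, the muscle chaperone that folds myosin with HSP90 and partners SMYD1 in zebrafish, read 12.02 and 12.95 against 10.20 and 10.34 (difference −2.22). Its form in all cells, Unc45a, read 9.81 and 9.86 against 10.32 and 10.44, a difference of 0.54. Both muscle genes were at limma adjusted p values of 0.154 and 0.188, and both were called lower with the intensity trend and robust prior (0.00441 and 0.00803). That fit called 1.45% of all genes lower. The corepressor Sin3a differed by 0.68 (adjusted p = 0.38). Hsp90aa1 and Hsp90ab1 differed by −0.25 and 0.06 at levels of 15.04 and 14.72 averaged over the arrays. A dim feature of Hsp90aa1 went the other way, by 1.38. Naca, whose muscle splice form binds SMYD1, differed by 0.16, and its 10 features lay between 0.16 and 0.24. These features were not assigned to a splice form here.

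**Figure D4:**
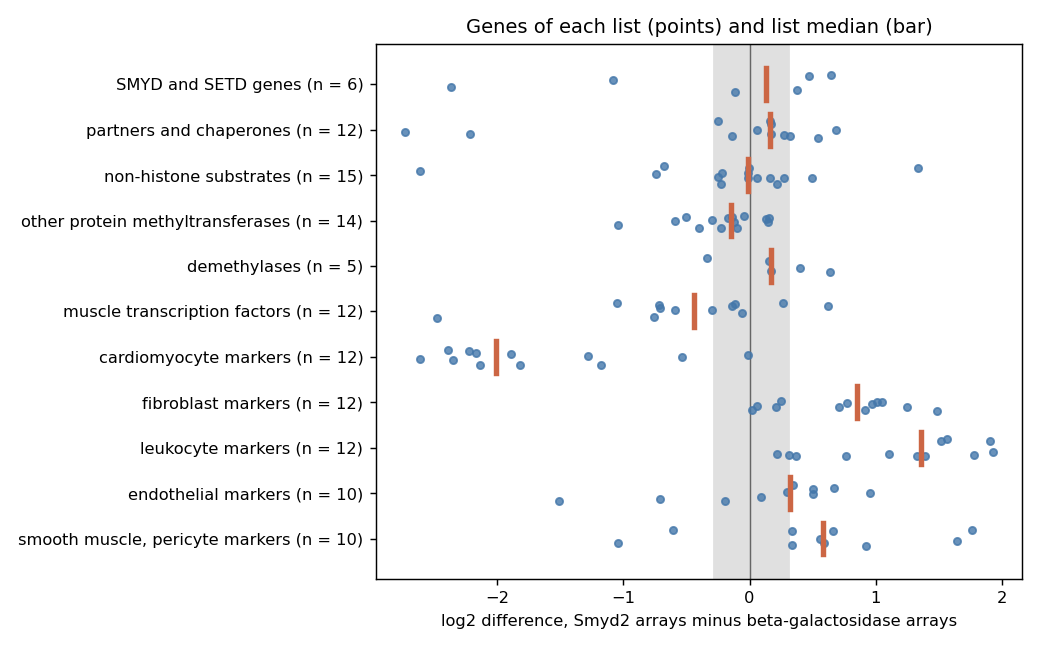
Log2 difference between the groups (horizontal axis) for each measured gene of 11 lists (points), with the list median as a red bar and the range between the quartiles of all genes in grey. The cardiomyocyte markers lie to the left with a median of −2.01 over all 12, while the SMYD and SETD genes are spread around a median of 0.13.

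The genes of proteins that these enzymes are known to methylate, a list that shares both Hsp90 genes with the partners, had 15 measured members. The actins Actb, Actc1 and Actg1 read at least 15.85 on all 4 arrays, near the top of the scale, so no difference can be read for them. The other 12 genes split into 6 on each side of 0, and their median was −0.08 (−0.01 with the actins). By limma 3 had an unadjusted p under 0.05, all lower, where 6.39% of all genes were lower at that level, and 0 an adjusted one. Skeletal actin, Acta1, an actin of the kind SETD3 acts on, read 12.79 and 13.22 in the controls and 10.60 and 10.18 on the Smyd2-labelled arrays (difference −2.61, limma adjusted p = 0.154, and 0.00205 with the intensity trend and robust prior). Parp1, the DNA damage sensor that SMYD2 methylates, read 12.53 and 12.61 against 12.01 and 11.77, and its 10 features ranged from −0.73 to −0.56. The SMYD3 substrate Map3k2 differed by −0.74 and was dim on the Smyd2-labelled arrays. The DNA methyltransferase Dnmt1, a SETD7 substrate, read 3.82 and 2.99 in the controls against 3.95 and 5.53, dim on all but the last. Its difference of 1.33 was 0.54 without Smyd2 replicate 2. The adjusted p values of Parp1, Map3k2 and Dnmt1 were 0.378, 0.374 and 0.485.

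Other enzymes that methylate lysine or histidine of proteins other than histones were lower in 11 of 14 measured genes, with a median of −0.15. By limma 1 had an unadjusted p under 0.05 and was lower, where 6.39% of all genes were lower at that level, and 0 passed. Setd6, which methylates the NF-kappa-B subunit RELA, read 5.32 and 5.06 in the controls and 4.27 and 4.02, both dim, on the Smyd2-labelled arrays (difference −1.04, adjusted p = 0.268). The carnosine methyltransferase Carnmt1, listed with the histidine enzymes, differed by −0.59. Mettl18, which methylates a histidine of a ribosomal protein, differed by −0.51, and Mettl21c, a muscle enzyme, by −0.30 in overlapping groups. The 5 lysine demethylases had a median of 0.17, and 1 of them was lower. The median was 0.04 without control replicate 1 and 0.30 without control replicate 2. The differences of Phf2, Kdm1b, Phf8 and Kdm2a were 0.40, −0.34, 0.64 and 0.17. The control replicates of Phf8 lay far apart (4.19 and 6.03). Kdm1a, which removes methyl groups from histones and other proteins, differed by 0.15. None of the demethylases had a limma unadjusted p under 0.05.

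Of 12 transcription factors of heart and skeletal muscle, among which SRF, MEF2C and myogenin are known to drive Smyd1, 10 were lower and the median was −0.44. At a limma unadjusted p under 0.05 there were 4, all lower and among them the dim Myod1, and 0 by the adjusted p. Over all genes 6.39% were lower at that unadjusted level. Nkx2-5, the homeobox factor of the heart, read 8.64 and 9.47 in the controls and 6.60 and 6.55 on the Smyd2-labelled arrays. Its difference of −2.48 (limma adjusted p = 0.154) was matched by −2.80 at its other feature. Myocd, the cardiac and smooth muscle coactivator of SRF, read 8.11 and 8.37 against 7.08 and 7.29, a difference of −1.05 (adjusted p = 0.261) with −1.17 at its other feature. Mef2a differed by −0.72 (adjusted p = 0.413) with −1.13 at its other feature, and Mef2c by −0.59. Srf differed by −0.12 in overlapping groups, Gata4 by −0.14 and the dim Isl1 by −0.06. Mef2d differed by 0.26, with −0.58 at its other feature. Myod1 and Myog, the skeletal muscle factors, were dim in both groups, apart from 1 control array of Myog at 5.14.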

How the data were processed

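Total RNA of 4 samples was amplified, labelled with Cy3 and hybridised to single-colour Agilent arrays, per the labels' protocols. The deposited table holds log2 intensity values normalized by the authors between arrays, as their equal quartiles show. Limma is named in the submitters' processing notes, and neither the background correction nor the normalization method is given in the sources used here. Groups and replicate numbers came from the sample titles. Of 62976 features, 36191 had 1 gene symbol, and 28236 were updated or kept through RefSeq accessions and 457 through older symbols (RefSeq table of GRCr8, names only). Of a gene's features the one with the highest mean represented it, which left 19868 genes. No flag marks dim or saturated features.

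The limma package, version 3.58.1 (R 4.3.3; lmFit, then eBayes without trend), was fitted over all genes, with 2 residual degrees of freedom and a prior of 3.01, and was tested on simulated data. The p-values set each difference against the spread between these samples, moderated toward that of all genes. Lists were described by counts and medians, without a test of the list, and genes near the top of the scale on all 4 arrays were set apart, a step added after the data were seen. Named were the 7 listed genes and the 5 nearest in profile to Smyd1 and Smyd2, among genes with a mean of at least 6 and no locus name. The 4 genes with the largest statistic were also named for each list except the fibroblast, leukocyte and endothelial markers. Those 3 lists were given mainly by counts and medians. Further genes were chosen after their values were seen. The genes and lists were chosen with earlier results of these data known. Protein sequences were not used here, so identity between the proteins was not computed. Some listed genes were not analysed here, among them the enzymes Setd9, Eef1akmt3, Eef1akmt4, Vcpkmt, Cskmt and Mettl21a.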

Additional observations from a re-analysis of the deposited data

How the results depend on the processing

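Among the 6 genes, Smyd2 changed direction when Smyd2 replicate 2 was left out (0.13). Smyd1 passed limma's threshold with an intensity trend and robust prior (−2.36, adjusted p = 0.032). No other direction changed when an array was left out. Neither direction nor call changed under repeated quantile normalization or a mean of at least 6. The same held for centring on the array median, averaging the features of a gene, testing each feature separately and no moderation. These last settings could not turn a direction. The arrays already share a median, each of these genes has 1 feature, and moderation alters only the spread. The filter at a mean of 6 left out Smyd4, Smyd5 and Setd7. Leave-one-out differences ranged from −2.94 to −1.78 for Smyd1, −0.37 to 0.13 for Smyd2, 0.36 to 0.92 for Smyd3, −1.24 to −0.93 for Smyd4, 0.07 to 0.68 for Smyd5 and 0.39 to 0.56 for Setd7. The adjusted count over all genes was 383 with the intensity trend and robust prior and 243 with the trend alone, against 0. The unadjusted count of 2363 became 4346 with every feature on its own, which tests more features, and 1149 to 3151 with 1 array left out (1149 without Smyd2 replicate 1 and 1266 without Smyd2 replicate 2). The replicate block gave 0 adjusted and 2251 unadjusted calls and changed no call for these genes (Smyd1 adjusted p = 0.132). Over all genes the deviations of same-numbered arrays had a correlation of 0.032. Smyd1 was higher on replicate 2 in both groups, and the leukocyte list mean was higher on replicate 1 in both. Whether same-numbered samples were prepared together cannot be told from these values. The cause of the shifts between settings was not tested.

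The median of the 6 genes was −0.12 with the filter at a mean of 6, which leaves 3 of them, and −0.12 to 0.25 with 1 array left out. Repeated quantile normalization gave 0.24 for the partners, 0.04 for the substrates and −1.85 for the cardiomyocyte markers, averaged features 0.01 for the substrates, and the filter −0.59 for the transcription factors. With 1 array left out the medians ranged from 0.03 to 0.20 for the partners, from −0.02 to 0.00 for the substrates, from −0.49 to −0.37 for the transcription factors, from −2.12 to −1.82 for cardiomyocyte markers, from 0.20 to 1.04 for fibroblast markers, from 0.58 to 2.01 for leukocyte markers and from −0.11 to 0.78 for smooth muscle and pericyte markers. The fibroblast median was 0.20 without control replicate 1, the leukocyte median 0.58 without Smyd2 replicate 1, and the smooth muscle median turned to −0.11 without control replicate 1. A forward-strand search found 3 of the 4 motif matches. Dim levels limit Smyd4 and Smyd5, and Smyd1 lay not far above the array median on the Smyd2-labelled arrays.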
